A study of Mus musculus with 14 samples.

Results

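Heat shock proteins and DnaJ proteins are molecular chaperones, which bind unfolded proteins and help them to fold, to reach their compartment or to be removed. Hsp70 proteins do the work by cycles of ATP hydrolysis. DnaJ proteins, also called Hsp40, bring clients to them and speed hydrolysis through a J domain, and Hsp110 proteins exchange the nucleotide. Hsp90 acts later on receptors and kinases, Hsp60 with Hsp10 forms a folding chamber in mitochondria, and small heat shock proteins hold unfolded clients without ATP. Heat shock factor 1 induces many of the cytosolic genes, and the unfolded protein response induces those of the endoplasmic reticulum. In neurons the system also serves synaptic vesicles, since Hspa8 with its DnaJ partner auxilin strips clathrin from them.

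The genes described here are the protein-coding rows of the authors' deposited comparison whose symbols begin with Hspa, Hspb, Hspd, Hspe, Hsph or Hsp and a digit, or with Dnaja, Dnajb or Dnajc and a number. The rule uses names only, no measured value, and found 61 of the 13130 genes. Of these, 22 carry Hsp names and 39 are DnaJ genes. By family there were 8 Hsp70, 3 Hsp110, 3 Hsp90, 2 mitochondrial chaperonin and 4 small Hsp genes, and 4 class A, 10 class B and 25 class C DnaJ genes. The pattern also took in Hspbp1, an exchange factor for Hsp70, and Hspbap1, which is named for binding a small Hsp. The stress-inducible Hsp70 genes Hspa1a and Hspa1b were not analysed here.

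Messenger RNA was sequenced from the nucleus accumbens of C57BL/6 mice homozygous for a loxP-flanked Tet1 allele, taken 4 weeks after a virus injection into that region. Tet1 oxidises methylated cytosine in DNA. Of the 14 mice, 7 received an adeno-associated virus (AAV) carrying Cre recombinase and 7 control mice, with the same alleles, received AAV carrying green fluorescent protein (GFP). Each mouse gave 1 library. The labels do not say which promoter drives Cre, which exons lie between the loxP sites or how many cells took up the virus.

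The data are the authors' own fold change, mean level, t and p for each gene, so values per mouse, their SDs and the depth of each library cannot be shown. Fold changes are AAV-Cre over AAV-GFP on a log2 scale, in the direction that the name of the table gives and that these data cannot test, and a positive value means higher in AAV-Cre. Errors are standard errors (SE) derived from the fold change and t. Mean levels are over all 14 libraries, on the scale of log2 CPM, in which reads are scaled to library size. Tet1 itself stood at a log2 fold change of -0.13 ± 0.11 (SE) in the authors' deposited table, with an adjusted p of 0.921 over all genes, a value over the whole gene that does not measure recombination. As a check of the tissue, 8 of 9 markers of striatal projection neurons were measured, at mean levels of 7.08 to 10.3 against a median of 4.91 over all genes, while Drd1 was not analysed here. These marker genes stood at log2 fold changes of -0.11 to 0.14, and 0 of the 8 had an unadjusted p under 0.05. In bulk tissue, fewer cells of a type and less RNA per cell cannot be told apart.

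No heat shock or DnaJ gene passed an adjusted p of 0.05 between AAV-Cre and AAV-GFP in the authors' moderated test. The smallest adjusted p among the 61 was 0.919, and among all 13130 genes 0% of genes passed (smallest adjusted p = 0.695). At an unadjusted p under 0.05 there was 1 member higher in AAV-Cre, where 4.62% of all genes were, and 0 members lower, where 0.533% of all genes were. The member was Dnajc9, whose protein in human cells is both an Hsp70 partner and a histone chaperone. Its log2 fold change was 0.11 ± 0.048 (SE) in the authors' deposited table, or 7.67% higher, with an unadjusted p of 0.0417. At an unadjusted p under 0.1 there were 4 members higher, where 8.97% of all genes were, and 0 lower, where 1.74% of all genes were. The other 3 were Hspa2, Dnajb11 and Dnajb4.

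Fold changes were small across the members. Their median log2 fold change was 0.031 against 0.018 over all genes, and 39 members (63.9%) were above 0 against 59.1% of all genes. All 61 fold changes fell between -0.15 and 0.21. Relative to the median of all genes, 36 were above 0 and 25 below. The 3 genes that changed side were Hspd1, Dnaja2 and Dnajc1, which the authors' deposited table lists at 0.012, 0.013 and 0.015.

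**Figure D1:**
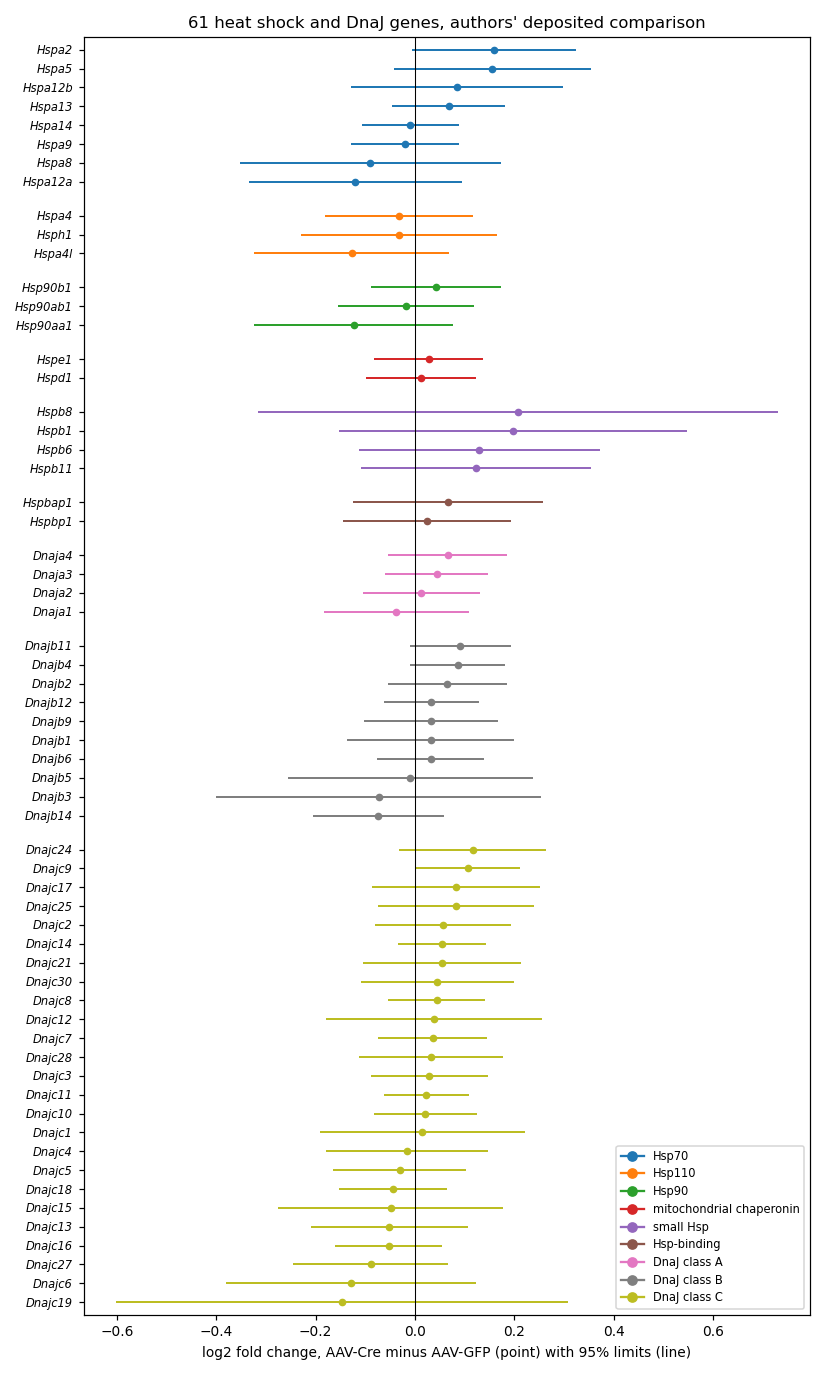
Log2 fold changes of the 61 members (points, AAV-Cre minus AAV-GFP) with their 95% limits (lines), grouped and coloured by family, from the authors' deposited comparison of 7 and 7 mice. All points lie between -0.15 and 0.21, and the limits cross 0 for every gene except Dnajc9.

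The limits around these values were narrow. For all 61 genes the 95% limits, taken gene by gene, left out a change of 2-fold in either direction, and for 59 of 61 they left out a change of 1.5-fold. The same held at 2-fold for 96.4% and at 1.5-fold for 89.2% of all genes. At 1.3-fold it held for 57 members (93.4%) and 77.1% of all genes. The exceptions at 1.5-fold were Hspb8, a small Hsp that works in selective autophagy, and Dnajc19, a gene of the mitochondrial import motor. Hspb8 had limits of -0.31 to 0.73 (log2) and Dnajc19 limits of -0.60 to 0.31, and Dnajc19 had the lowest mean level of all members (0.11 on the log2 CPM scale).

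Cytosolic Hsp90 and Hsp70 genes had the highest levels. Per kilobase of exon, the mean level was highest for Hsp90ab1, the constitutive cytosolic Hsp90, at 8.94 (log2 CPM per kb). Hspa8, the constitutive Hsp70 that uncoats clathrin vesicles, followed at 7.34, and the inducible Hsp90aa1 at 6.95. Next stood Hspd1 (Hsp60) at 5.91, Dnaja2 at 5.87, the endoplasmic reticulum Hsp90 gene Hsp90b1 at 5.84, the synaptic vesicle gene Dnajc5 at 5.83 and Hspa5 at 5.78. The small Hsp members were scarce in this tissue, at 0.99 to 2.45 (log2 CPM per kb). Small Hsp genes with symbols outside the pattern were not looked at. No error can be given for these levels, so neighbours such as Dnaja2, Hsp90b1 and Dnajc5 cannot be ordered.

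For Hsp90ab1, Hspa8 and Hsp90aa1 the fold change was below 0, and none passed the test. Hspa8 stood at a log2 fold change of -0.090 ± 0.12 (SE) in the authors' deposited table, a difference of -6.02%, with an unadjusted p of 0.476. Hsp90aa1 stood at -0.12 ± 0.093 there (unadjusted p = 0.206), while in the authors' deposited table Hsp90ab1 was nearest to 0, at -0.018 ± 0.063. For Hsp90ab1 the 95% limits were -10.04% and 8.37%.

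The 3 Hsp110 genes, which recharge Hsp70 with ATP, also lay below 0. Hspa4l had the lowest t of all 61 members, with a log2 fold change of -0.13 ± 0.091 (SE) in the authors' deposited table and an unadjusted p of 0.184. Hspa4 and Hsph1 stood at -0.032 ± 0.069 and -0.033 ± 0.092 in the authors' deposited table. Counted with Hsp90ab1, Hspa8 and Hsp90aa1, 6 of 6 of these abundant cytosolic genes were lower, with a median of -0.061. This grouping was made after the values were seen, and the smallest unadjusted p among the 6 was 0.184. Of all 1736 genes with a mean level of at least 7 (log2 CPM), 917 were lower. Of the 18 members at that level 13 were lower and 5 higher. Among those 5 were Dnaja2 (0.013 ± 0.054, SE) and Dnajc7 (0.036 ± 0.050) in the authors' deposited table.

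Of the 11 genes in the list for the endoplasmic reticulum, 10 had values above 0, where 63.9% of all 61 members and 59.1% of all genes did. The median of their mean levels was 5.90 (log2 CPM). Of the members with a mean level under 7, a level chosen after the values were seen, 79.1% were higher. The median log2 fold change of the 11 genes was 0.033, and 0 of them had an unadjusted p under 0.05. After subtraction of the median of all genes, 9 of the 11 were higher. The list left out 3 members that also encode J proteins of the reticulum, Dnajc14 (0.054 ± 0.040, SE), Dnajc16 (-0.053 ± 0.050) and Dnajc18 (-0.044 ± 0.050) in the authors' deposited table. With these 3, added after their values were seen, 11 of 14 were higher and the median was 0.033. Hspa5 encodes BiP, the Hsp70 of this compartment, and stood at 0.16 ± 0.092 (SE) in the authors' deposited table. That is 11.4% higher, with 95% limits of -2.76% and 27.7% and an unadjusted p of 0.111. Dnajb11, a DnaJ partner of BiP, stood at 0.091 ± 0.047 in the authors' deposited table (unadjusted p = 0.0680).

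The other genes named from this list lay nearer to 0. Hsp90b1 (0.042 ± 0.061, SE), Dnajb9 (0.032 ± 0.062) and Dnajc3 (0.029 ± 0.054), the last also an inhibitor of the kinase PERK, did not pass in the authors' deposited table. Dnajb14, a J protein of the reticulum membrane, was the 1 gene of the 11 below 0, at -0.074 ± 0.061 in the authors' deposited table. Whether the endoplasmic reticulum and cytosolic genes differ in their response could not be tested without values per mouse.

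The upstream sequences of the reticulum genes are shown because their best-known control element can be read in them. The endoplasmic reticulum stress element, bound by ATF6 with NF-Y, was searched on both strands, as CCAAT and CCACG with 9 bases of any kind between them, in RefSeq promoter windows (250 bases before to 50 after each start site, GRCm38.p6). A match stood in 39 of 32851 windows (0.119%). Windows were found for 50 of the 61 members, and 3 of these 50 held a match, Hspa5, Hsp90b1 and Dnajc3. A gene can have several windows and counted if any matched, so this count cannot be set against the share of windows. The members with no window were Dnajc2, Dnajc5, Dnajc11, Dnajc12, Dnajc18, Dnajc30, Hsp90aa1, Hsp90ab1, Hspa8, Hspa9 and Hspa13. The stretches below run 5′ to 3′ on the strand of the gene, with the matches in capitals, and Hsp90b1 has a second match on the opposite strand. A stretch stays within the 250 bases before the start site and stops earlier where GENCODE M21 places an exon. Where the match itself lies in an exon it is shown with 5 bases on each side.
Hspa5, chr2:34772020-34772048 (+): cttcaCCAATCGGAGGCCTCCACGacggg
Hsp90b1, chr10:86705510-86705694 (-): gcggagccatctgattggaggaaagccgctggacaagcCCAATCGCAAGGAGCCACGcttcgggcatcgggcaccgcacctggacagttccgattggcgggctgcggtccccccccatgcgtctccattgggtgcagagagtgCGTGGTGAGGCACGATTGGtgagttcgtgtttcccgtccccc
Dnajc3, chr14:118937682-118937931 (+): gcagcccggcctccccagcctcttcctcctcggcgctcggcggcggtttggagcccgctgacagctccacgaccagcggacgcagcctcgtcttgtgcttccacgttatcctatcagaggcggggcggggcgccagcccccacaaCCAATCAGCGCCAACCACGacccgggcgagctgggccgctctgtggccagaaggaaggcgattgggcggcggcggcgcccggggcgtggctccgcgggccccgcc

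All 3 genes with the element had fold changes above 0, as given above, and none passed the test. Of the 11 genes in the reticulum list, which include these 3, 10 were above 0, as were 63.9% of all 61 members. A match describes letters in a window and is no evidence of binding. Dnajb11, which had the highest t of the reticulum genes, held no match in its window.

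The other genes of the unfolded protein response were compared as a list of 27, none of them a member. Of these, 16 were higher in AAV-Cre and 11 lower, so that 59.3% were higher against 59.1% of all genes. The median log2 fold change was 0.020 against 0.018 over all genes. After subtraction of the median of all genes, 14 were higher and 13 lower. An unadjusted p under 0.05 was found for 4, all higher, where 4.62% of all genes were, with an adjusted p of 0.919 for each. They were the disulfide isomerase gene Pdia4 (0.22 ± 0.081, SE), the retrotranslocation gene Derl1 (0.12 ± 0.045), Sdf2l1 (0.28 ± 0.11), which works with BiP and Dnajb11, and Creld2 (0.21 ± 0.097) in the authors' deposited table. The reticulum Hsp110 gene Hyou1 stood at 0.0056 ± 0.065 in the authors' deposited table, and is named here, after its value was seen, as an exchange factor of BiP.

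Of 14 genes in the list of heat-inducible chaperones, 12 were measured, 6 were higher and 6 lower, and the median log2 fold change was -0.0033. None had an unadjusted p under 0.05. The list also holds Hspa8 and Hsp90ab1, which are mainly constitutive, and 5 of its 6 lower genes are among the 6 cytosolic genes counted above. Without Hspa8 and Hsp90ab1, left out after their values were seen, 6 were higher and 4 lower, with a median of 0.020. Dnajb1, the main inducible DnaJ gene of the cytosol, stood at 0.031 ± 0.078 (SE) in the authors' deposited table, with an unadjusted p of 0.691. Dnajb4, an inducible relative, had the larger value of 0.086 ± 0.044 in the authors' deposited table (unadjusted p = 0.0702), and Dnaja1 stood at -0.037 ± 0.068.

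The heat shock factor genes also lay near 0, and 0 of them had an unadjusted p under 0.05. Hsf1 stood at a log2 fold change of 0.023 ± 0.087 (SE), Hsf2 at 0.032 ± 0.057, Hsf4 at -0.047 ± 0.15 and the HSF-binding gene Hsbp1 at 0.032 ± 0.057 in the authors' deposited table. Of the list of 6, Hsf3 and Hsf5 were not analysed here.

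The heat shock element is shown for Hspd1 and for the small Hsp gene Hspb1. Among the members with a window, Hspd1 and Hspe1 hold the longest run of its units. The element is built of GAA units in alternating direction. It was searched on both strands as GAANNTTC, with its other phase (the units in reverse order), and as 3 such units in a row. The 2-unit form stood in 15.1% of all windows and in 12 of the 50 members with a window (24%). A member counted if any of its windows matched, so shares of windows and of members cannot be compared. The form with 3 units, which contains the shorter one, stood in 0.603% of all windows and in Hspd1, Hspe1, Hsph1 and Dnajb6. Among the 12 members with the 2-unit form, 9 were higher and 3 lower, with a median log2 fold change of 0.029. Of all 61 members 63.9% were higher, and of all genes 59.1%. Hsp90aa1, Hspa8 and Hsp90ab1, which all lay below 0, had no window and could not be searched. Hspd1 and Hspe1 lie head to head on chromosome 1, and the same run of units at 55088059 to 55088076 counts for both. The stretches below are printed as above, with matches in capitals.
Hspd1, chr1:55088054-55088081 (-): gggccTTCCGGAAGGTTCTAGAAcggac
Hspb1, chr5:135887669-135887918 (+): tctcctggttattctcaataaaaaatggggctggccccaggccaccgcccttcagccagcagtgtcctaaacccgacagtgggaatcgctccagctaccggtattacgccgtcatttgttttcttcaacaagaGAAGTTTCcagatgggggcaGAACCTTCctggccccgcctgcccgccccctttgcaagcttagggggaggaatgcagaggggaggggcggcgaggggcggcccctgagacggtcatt

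The paired genes of the run, Hspd1 and Hspe1, encode the Hsp60 barrel and its Hsp10 lid and were nearly level with each other. In the authors' deposited table Hspd1 stood at a log2 fold change of 0.012 ± 0.051 (SE) and Hspe1 at 0.027 ± 0.051, with limits that left out a change of 1.3-fold in either direction for both. GENCODE M21 lists 5 pseudogenes named after Hspd1 and 6 named after Hspe1, and the labels do not say how reads shared with such copies were counted. Hspa9, the mitochondrial Hsp70, stood at -0.020 ± 0.050 in the authors' deposited table, and its DnaJ partner Dnaja3 at 0.044 ± 0.048. Over all 10 mitochondrial members 6 were higher and 4 lower, the median was 0.017, and the smallest unadjusted p was 0.371.

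The 2 largest positive fold changes belonged to small Hsp genes, whose errors were wide, with a median SE of 0.14 against 0.069 over all 61 members. Hspb8 stood at a log2 fold change of 0.21 ± 0.24 (SE) and Hspb1 (Hsp27) at 0.197 ± 0.16 in the authors' deposited table, with unadjusted p of 0.410 and 0.247. Hspb6 (Hsp20) stood at 0.13 ± 0.11 in the authors' deposited table. With Hspb11, a member by name that encodes an intraflagellar transport protein, 4 of 4 were higher, with a median of 0.16 and 0 past an unadjusted p of 0.05. Of all members with a mean level under 7 (log2 CPM), 79.1% were higher.

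Markers of several non-neuronal cell types stood on the same side of 0. Microglial markers were higher in 7 of 7 genes (median log2 fold change 0.32, range 0.024 to 0.72), endothelial markers in 6 of 6 (0.18, range 0.11 to 0.29) and mural cell markers in 5 of 5 (0.12, range 0.11 to 0.196). Astrocyte markers were higher in 6 of 7 (0.099, range -0.031 to 0.69), oligodendrocyte markers in 5 of 5 (0.051, range 0.047 to 0.088) and ependymal markers in 3 of 3 measured (0.53, range 0.37 to 0.83). Of these markers, 3 microglial, 2 endothelial and 1 astrocyte gene had an unadjusted p under 0.05, all higher, where 4.62% of all genes were. The adjusted p was 0.919 for each. The part of the markers in the values of the small Hsp genes was not tested.

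**Figure D2:**
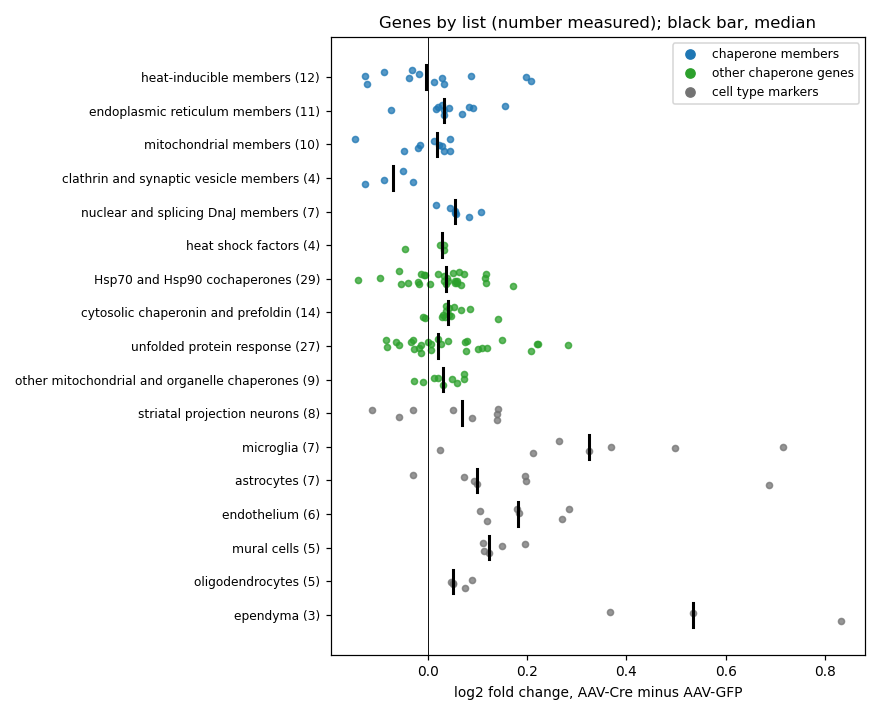
Log2 fold changes (AAV-Cre minus AAV-GFP) of single genes, 1 point per gene, with the median of each list as a black bar. The number measured is in parentheses. The lists are of chaperone members, other chaperone genes and cell type markers. Those labelled other chaperone genes also take in the heat shock factors and the unfolded protein response. The chaperone lists have medians between -0.070 and 0.054, while the microglial and ependymal markers have medians of 0.32 and 0.53.

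Members that serve clathrin coats and synaptic vesicles were lower in all 4 measured genes, the median log2 fold change was -0.070, and 0 were past an unadjusted p of 0.05. Their mean levels were 6.51 to 9.44 (log2 CPM). At a mean level of at least 7, 13 of 18 members and 917 of all 1736 genes were lower. Hspa8 is also counted among the 6 cytosolic genes and in the heat-inducible list above. Dnajc6 encodes auxilin, the neuronal uncoating partner of Hspa8, and stood at -0.13 ± 0.12 (SE) in the authors' deposited table (unadjusted p = 0.292). Dnajc5 encodes the cysteine string protein, which keeps SNARE proteins folded on synaptic vesicles, and stood at -0.031 ± 0.062 in the authors' deposited table. Dnajc13, an endosomal gene with a value of -0.051 ± 0.073 in the authors' deposited table, and Hspa8 complete the list. The list name Dnajc26 matched no row of the table, and that gene was not looked up under another name, so the list is incomplete.

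The other DnaJ genes scattered on both sides of 0 with smaller errors. Of all 39 DnaJ members 26 were higher and 13 lower, the median was 0.031 and the median SE 0.062, against 0.090 for the 22 Hsp members. Dnajb2, a neuronal DnaJ gene, stood at 0.065 ± 0.055 and Dnajb6, whose protein keeps polyglutamine proteins from aggregating, at 0.031 ± 0.050 in the authors' deposited table. Dnajb5 stood at -0.0092 ± 0.11, Dnaja2 at 0.013 ± 0.054 and Dnajc7, which binds both Hsp70 and Hsp90, at 0.036 ± 0.050 in the authors' deposited table.

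The extremes of t came from several families. The 5 highest were Dnajc9, Hspa2, Dnajb11, Dnajb4 and Dnajc24. Hspa2, an Hsp70 best known from male germ cells, stood at a log2 fold change of 0.16 ± 0.077 (SE) in the authors' deposited table (unadjusted p = 0.0556), and Dnajc24, which acts in diphthamide synthesis, at 0.12 ± 0.069 (unadjusted p = 0.110). The 5 lowest were Hspa4l, Hsp90aa1, Dnajc27, Dnajb14 and Hspa12a. Dnajc27, a J protein with a small GTPase domain, stood at -0.089 ± 0.072 and the distant Hsp70 relative Hspa12a at -0.12 ± 0.10 in the authors' deposited table (unadjusted p of 0.236 and 0.251).

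The list drawn up for nuclear and splicing DnaJ genes held 7 genes, all with values above 0, where 63.9% of all 61 members were. Its median was 0.054. It takes in Dnajc14, a J protein of the reticulum membrane, and Dnajc1, which is counted among the 11 reticulum genes too. Without both, left out after their values were seen, 5 of 5 were higher, with a median of 0.057. Dnajc9 was the 1 member of it with an unadjusted p under 0.05. After subtraction of the median of all genes 6 of the 7 were higher.

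Fold change and abundance were related across the members. Over the 61 genes, Pearson's r between mean level and log2 fold change was -0.40 and Spearman's rho was -0.53, against -0.17 and -0.15 over the 13130 genes. These are descriptions across genes measured in the same libraries, which are not independent replicates. Of the 18 members with a mean level of at least 7 (log2 CPM), 5 were higher and 13 lower, where 47.2% of the 1736 genes at that level were higher. Of the 43 members below that level 34 were higher, or 79.1%, against 60.9% of the genes there. The level of 7 was chosen after the values were seen, and 0 of the 18 abundant members had an unadjusted p under 0.05.

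**Figure D3:**
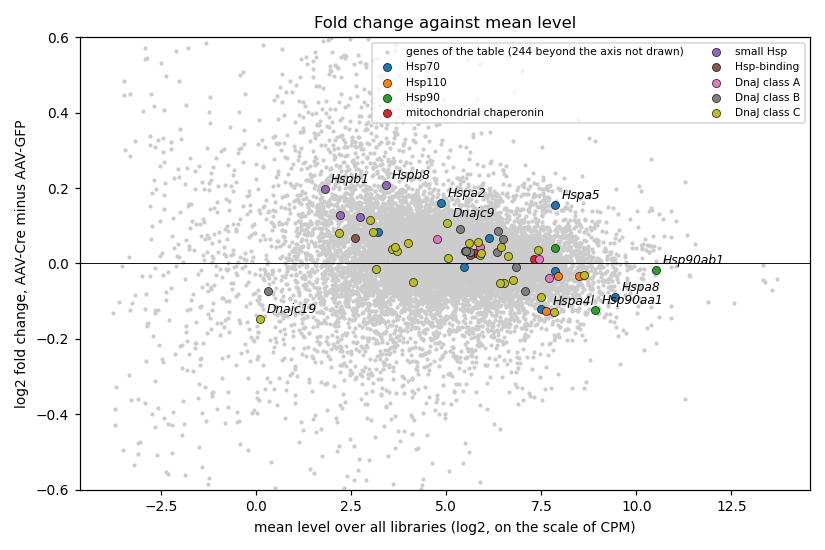
Log2 fold change (AAV-Cre minus AAV-GFP) against mean level (log2, on the scale of CPM) for the members, coloured by family, over the genes of the table in grey (244 genes beyond ±0.6 are not drawn). The abundant cytosolic genes Hsp90ab1, Hspa8 and Hsp90aa1 lie just below 0, and the scarce small Hsp members lie above it.

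The SE differed among members of similar level. Each SE was divided by the median SE of the 200 genes nearest in mean level. The median ratio was 0.85, and 20 of the 61 members were above 1. Above 1.5 were 5 genes, Hspb8 at 2.57, Dnajb5 at 1.71, Dnajc6 at 1.66, Hspa8 at 1.65 and, named here for this value, Dnajc1 at 1.56. The inducible Hsph1 and Hsp90aa1 stood at 1.28 and 1.27 and Hspa5 at 1.33, while Hspd1 and Hspa9 stood at 0.74 and 0.73. Which mice carried the wider spread cannot be seen in these data.

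**Figure D4:**
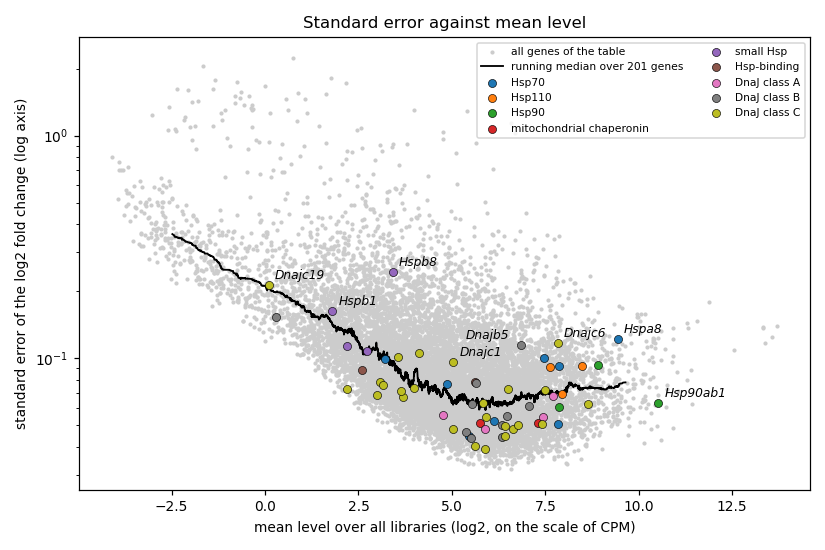
Standard error of the log2 fold change (log axis) against mean level (log2, on the scale of CPM) for the members, coloured by family, over all genes in grey with a running median as a black line. Hspb8, Hspa8, Dnajc6 and Dnajb5 lie above the running median, at 1.65 to 2.57 times the median of their neighbours in level.

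Cochaperones, which steer Hsp70 and Hsp90, lay on both sides of 0. Of 29 cochaperones of Hsp70 and Hsp90, 19 were higher and 10 lower, the median log2 fold change was 0.036, and 0 were past an unadjusted p of 0.05. Tomm34 (0.12 ± 0.056, SE) and Sil1 (0.11 ± 0.060), an exchange factor of BiP, had the lowest unadjusted p, 0.0560 and 0.0760 in the authors' deposited table. Bag3, the autophagy partner of Hspb8, was at 0.17 ± 0.12 and Sgtb at -0.14 ± 0.098 in the authors' deposited table.

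The cytosolic chaperonin and prefoldin, which fold actin and tubulin, were higher in 12 of 14 measured genes, where 59.1% of all genes were. The median for their genes was 0.039, and 0 were past an unadjusted p of 0.05. Their genes of smallest p were Pfdn5 (0.14 ± 0.078, SE), Cct5 (0.084 ± 0.055), Pfdn4 (0.066 ± 0.072) and Pfdn6 (0.047 ± 0.053) in the authors' deposited table, and Cct6b was not analysed here. Other mitochondrial chaperone and protease genes were higher in 7 of 9, with a median of 0.030 and 0 past an unadjusted p of 0.05. Among these Clpp stood at 0.073 ± 0.056 and Clpx at 0.059 ± 0.051 in the authors' deposited table.

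Some members share transcribed bases with a neighbour in GENCODE M21 (GRCm38), and the labels do not say whether counting used strand. Exons of Wdr61, on the opposite strand, covered 44.1% of the exonic bases of Dnaja4. The same share was 26.2% for Dnajc30, 19.9% for Dnajc14 and 15.7% for Hsp90b1. Other members had smaller shares, among them 10.8% for Dnaja1, 9.1% for Dnajc7, 8.8% for Hspb6 and 8.0% for Dnaja3. The values of all these genes may hold reads of their neighbours. The member with an unadjusted p under 0.05, Dnajc9 (ENSMUSG00000021811.6, chromosome 14, 20384638 to 20388910, minus strand), shares none.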

How the data were processed

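RNA was measured in 14 mouse nucleus accumbens libraries, 7 AAV-Cre and 7 AAV-GFP. The submitters' processing notes name TopHat2 2.0.9, Bowtie2 2.1.0, GRCm38 and mm10. For counting, annotation, normalization, filter and model nothing is given in the sources used here. The deposited table gives, per the file headers, log2 fold changes and log2 mean levels. Its score columns, as deposited, are named as limma names its t and log-odds (the second unused). Its p-value columns, as deposited, come unadjusted and adjusted. The adjusted p equals a Benjamini-Hochberg adjustment over 13130 genes within 1e-06, the p follow from t with 15.1 degrees of freedom, and linear levels sum to 991364, as for CPM. The groups are labelled as separate mice. Depth per library is unknown.

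Computed here were SE (fold change over t), 95% limits, counts, medians, levels per kb of exon (GENCODE M21), exon overlaps, SE ratios and motif matches in RefSeq windows. The derivations were tested on simulated data. Members, lists and the rule for named genes were chosen with earlier results of these data known. The rule names members with an unadjusted p under 0.05, the 5 highest and 5 lowest t, a core list, and up to 4 genes of smallest p in each other list. No set test was run. Alternatives were thresholds of 0.1, a mean of at least 1 CPM, centring on the median of all genes, and leaving out Hspbp1 and Hspbap1. Scripts ran in Python 3.11.15 with pandas 2.3.3, numpy 2.4.6, matplotlib 3.10.9 and scipy 1.17.1.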

Additional observations from a re-analysis of the deposited data

How the results depend on the processing

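At an unadjusted threshold of 0.1 the count of members higher in AAV-Cre was 4 in place of 1 (8.97% of all genes), and 0 were lower (1.74% of all genes). The other alternatives kept the counts within 1.5 times. All 61 members had a mean of at least 1 CPM, so that filter changed no count or median. With adjustment over the 12697 genes at that level 0 members passed and the smallest adjusted p was 0.928, and 0 passed at an adjusted threshold of 0.1. Centring on the median of all genes gave a median of 0.013 for the members, and leaving out Hspbp1 and Hspbap1 gave 0.031. Changing the membership of 3 lists, chosen after seeing the data, moved no count of higher genes by over 1.5 times. Leaving out libraries was not run, because the table holds no values per library. No paired analysis was possible because the table holds no values per library and the labels give no shared replicate numbers. Depth per library is unknown, so what it limits cannot be stated.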
